A study of Mus musculus with 6 samples.

Results

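The regulators of G protein signaling described here are 10 genes, Rgs1, Rgs2, Rgs3, Rgs4, Rgs5, Rgs10, Rgs14, Rgs16, Rgs18 and Rgs19, of the 22180 genes that the microarrays measured with a probe set of their own. Each was represented by the brightest probe set that names no other gene, ranked on its mean level, and the genes were chosen with their difference between diabetic and nondiabetic arrays in view. The group means and differences below are therefore a description and carry no test. Marrow endothelial cells of male C57BL/6J mice were sorted, 5000 cells per sample, and 3 arrays came from mice with diabetes induced by a high fat diet and 3 from nondiabetic mice. The labels carry the same text on a diet of 60 kcal% fat for 4 months for both groups, so what the nondiabetic mice ate is not settled by them, and they give neither the age of the mice, nor the markers used for the sort, nor whether replicate arrays stand for different animals. The spread between arrays may therefore be technical.

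A G protein-coupled receptor activates its G protein by loading the alpha subunit with GTP, and the signal ends when the alpha subunit hydrolyses that GTP. RGS proteins bind the active alpha subunit and speed up this step, so they shorten and weaken signals through the receptors. The R4 subfamily consists mostly of small proteins that act on the Gi and Gq classes, and it holds Rgs1, Rgs2, Rgs3, Rgs4, Rgs5, Rgs16 and Rgs18. Rgs10 and Rgs14 belong to the R12 subfamily and Rgs19 to the RZ subfamily. In blood vessels the family is known for setting vascular tone and the response of cells to chemokines and sphingosine phosphate, which guide blood cells through the marrow wall.

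Of the 10 members, 6 lie on mouse chromosome 1, which holds 5.5% of protein-coding genes in the RefSeq table of assembly GRCm38.p6, and all 6 belong to the R4 subfamily. Among protein-coding genes there, Rgs4 and Rgs5 are direct neighbours. Rgs16 lies beside Rgs8, and Rgs2, Rgs13, Rgs1, Rgs21 and Rgs18 follow each other in that order. RefSeq's promoter table of the same assembly held 7 of the 10 members. The 250 bases before the start of Rgs4, Rgs5 and Rgs16 are shown because Rgs4 and its neighbour Rgs5 had unlike values in the diabetic arrays and Rgs16 had the second largest difference in size among the members. Written 5′ to 3′ in the direction of the gene, with capitals for matches on either strand to TATAAA (a core promoter element), TGACG (the core of cAMP response elements) or GGGCGG (GC box), they read as follows.
Rgs4, chr1:169747643-169747892, minus strand: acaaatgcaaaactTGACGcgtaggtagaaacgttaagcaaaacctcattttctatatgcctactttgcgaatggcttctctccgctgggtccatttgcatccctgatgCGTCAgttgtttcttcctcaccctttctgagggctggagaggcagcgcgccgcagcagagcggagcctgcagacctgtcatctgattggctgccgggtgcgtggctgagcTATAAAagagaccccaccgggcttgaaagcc
Rgs5, chr1:169655251-169655500, plus strand: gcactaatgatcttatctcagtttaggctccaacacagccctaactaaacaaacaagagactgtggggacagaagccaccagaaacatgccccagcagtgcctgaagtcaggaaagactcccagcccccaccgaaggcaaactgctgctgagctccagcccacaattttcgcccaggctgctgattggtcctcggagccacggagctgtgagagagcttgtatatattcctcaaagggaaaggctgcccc
Rgs16, chr1:153740103-153740352, plus strand: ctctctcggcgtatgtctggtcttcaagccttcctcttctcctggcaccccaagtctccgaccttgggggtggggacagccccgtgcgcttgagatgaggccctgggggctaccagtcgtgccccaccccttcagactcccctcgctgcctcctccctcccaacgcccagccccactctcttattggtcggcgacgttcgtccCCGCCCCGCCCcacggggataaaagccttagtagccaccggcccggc
The Rgs4 window holds 1 TATAAA, which begins 31 bases before the start, and 2 matches to TGACG, which begin 236 and 141 bases before it. In the Rgs16 window 2 matches to GGGCGG were found, overlapping each other, and the Rgs5 window has no match to these letters. Over all 32851 windows of this length in the table, where a gene may have several, 12.4% hold TATAAA, 17.8% hold TGACG and 32.7% hold GGGCGG. A match describes the letters and is not a shown binding site.

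The sorted cells carried the markers of endothelium, with all 8 pan-endothelial markers above the limit for dim genes, a log2 value of 5.07. Cdh5, the cadherin of endothelial junctions, stood at 10.88 ± 0.43 in diabetic and 10.98 ± 0.22 in nondiabetic arrays (SD, n = 3 each). Diabetic replicate 1 stood apart, with a mean of the 8 markers of 9.97, where the other arrays had 9.21 to 9.74. RNA of blood cells was present as well. Markers of other cells far above the limit for dim genes included the platelet chemokine Ppbp, at 11.39 and 11.32 in diabetic and nondiabetic cells. The basophil protease Prss34, at 11.39 and 11.29, and Ly6c2 of the monocyte list, at 11.09 and 10.76, were others. The neutrophil, plasma cell and erythroid lists held such markers too. The array medians lay between 5.21 and 5.28. In sorted cell RNA, more cells of a type and more RNA per cell cannot be told apart.

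Rgs4 was higher in all 3 diabetic arrays than in all 3 nondiabetic arrays, and no other member separated the groups. Its log2 values were 8.98, 8.38 and 7.45 in diabetic replicates 1, 2 and 3 and 5.76, 6.10 and 6.52 in nondiabetic replicates 1, 2 and 3. The means were 8.27 ± 0.77 and 6.13 ± 0.38 (SD, n = 3 each), so that the diabetic mean lay 2.14 higher (SE 0.37), or 4.41-fold. Rgs4 protein restrains signals through Gi and Gq and is best known from heart and brain. The limma 95% interval of the difference, not adjusted for the number of genes, was 1.28 to 3.004. Without diabetic replicate 1, the highest array, the difference was 1.79, and without diabetic replicate 3 it was 2.55. With the mean of the pan-endothelial markers per array as a covariate the difference was 2.20.

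Of 13 lists of cell type markers, 4 had a higher mean in all 3 diabetic arrays, as Rgs4 did, and 0 had a lower mean in all 3. The groups did not overlap for 7.95% of single tested genes. A list mean joins several markers, so that share is no background for the count of lists. The mean of the 6 sinusoidal markers, all tested, lay between 8.60 and 9.31 in the diabetic and between 8.03 and 8.13 in the nondiabetic arrays. Diabetic replicate 1 was highest for the sinusoidal, monocyte and B lymphoid means, as for Rgs4, and diabetic replicate 2 for the neutrophil mean. Nondiabetic replicate 1, lowest for Rgs4, was among these lists the lowest array for the monocyte mean only. B lymphoid markers, 6 of 9 tested, had means of 5.62 to 6.09 against 5.35 to 5.53, the latter near the limit for dim genes of 5.07. Of these 6 markers, 4 were higher and 2 lower in the diabetic arrays by their group means. The sinusoidal and B lymphoid lists kept groups that did not overlap with any single marker left out, a check chosen after seeing the data. The monocyte and neutrophil lists did not. The lists were chosen with earlier results of these data known, so little can be read from this check. Without Adamts5, which itself differed by 1.94, the difference of the sinusoidal mean fell from 0.80 to 0.58. Monocyte markers, of which 7 of 9 were tested, had means of 7.93 to 8.20 against 7.43 to 7.85, and the groups overlapped without Ms4a6c. Neutrophil markers, 6 of 9 tested, had means of 7.70 to 7.80 against 7.15 to 7.55, but 0 of the 6 markers separated the groups by itself, and the means overlapped without S100a8 or without Elane. S100a8, a calcium-binding protein of neutrophils, ran from 3.52 in nondiabetic replicate 3 to 7.61 in nondiabetic replicate 1.

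Other lists ran the opposite way or overlapped. All 6 arteriolar markers had lower means in the diabetic arrays, with a median difference of -0.48. An unadjusted p under 0.05 in limma was found for 3 of them, Igfbp3 (-0.88), Bmx (-0.51) and Sox17 (-0.45), while 0 were called. Over all tested genes 1.07% were lower at that threshold. Of the 6 sinusoidal markers 3 were higher at that threshold, beside 3.19% of all tested genes, and 0 were called. The arteriolar means overlapped, at 7.51 to 7.91 in diabetic and 7.91 to 8.38 in nondiabetic arrays, but did not overlap without Gja4, Gja5 or Efnb2. The 4 tested T and NK cell markers also had lower means, with a median of -0.17. Mural cell markers, 8 of 9 tested, lay at 6.83 to 6.93 in diabetic and 6.73 to 6.89 in nondiabetic arrays. The part of any of these lists in the Rgs4 difference was not tested.

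**Figure D1:**
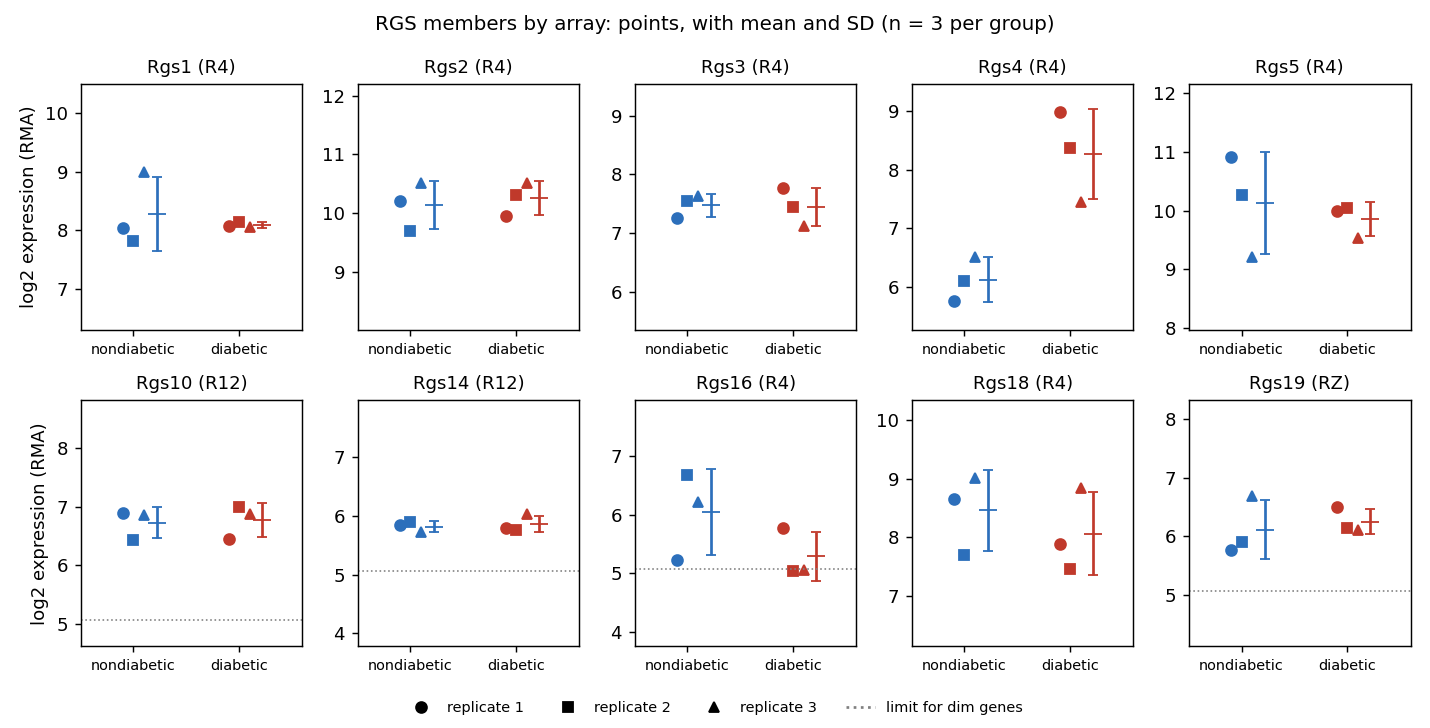
Log2 expression of the 10 RGS members in each array (y axis, RMA values, a span of the same length in every panel), with nondiabetic arrays in blue and diabetic arrays in red; point shapes give the replicate number, bars the mean and SD of 3 arrays, and the dotted line the limit of 5.07 for dim genes. The groups are apart for Rgs4, at 7.45 to 8.98 against 5.76 to 6.52, and overlap for every other member.

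Rgs5, the direct neighbour of Rgs4 on chromosome 1 and a marker of pericytes, did not share its pattern. The brighter of its 2 probe sets read 10.001, 10.05 and 9.53 in diabetic replicates 1 to 3 and 10.92, 10.27 and 9.21 in nondiabetic replicates 1 to 3. The nondiabetic arrays held both the highest and the lowest value and spread more widely, with an SD of 0.86 against 0.29, and the difference was -0.27 (SE 0.39, 95% interval -1.18 to 0.64). That difference was 0.12 without nondiabetic replicate 1 and -0.73 without nondiabetic replicate 3, so single arrays set its sign and size. The dimmer probe set gave 9.12, 8.41 and 8.24 against 9.997, 9.32 and 8.26 and a difference of -0.60. In both probe sets nondiabetic replicate 1 was highest. The mean of the mural markers was highest of the nondiabetic arrays in replicate 1 as well, at 6.89, with 6.73 and 6.74 in replicates 2 and 3, and it read 6.93, 6.86 and 6.83 in diabetic replicates 1 to 3. The part of mural cells in the Rgs5 values was not tested.

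Rgs16, which many cells induce under inflammatory stimuli, had the second largest difference of the members in size and lay lower in the diabetic arrays, with overlap. Its values were 5.78, 5.04 and 5.06 in diabetic replicates 1 to 3 and 5.23, 6.67 and 6.22 in nondiabetic replicates 1 to 3. Diabetic replicates 2 and 3 lay just under the limit for dim genes. The means were 5.29 ± 0.42 and 6.04 ± 0.74 (SD, n = 3 each), with a difference of -0.75 (SE 0.37, 95% interval -1.61 to 0.10). It ranged from -1.16 without nondiabetic replicate 1 to -0.44 without nondiabetic replicate 2, and its direction held with each array left out. Its neighbour Rgs8 stood at 5.15 ± 0.16 and 5.19 ± 0.085, a difference of -0.041, near the same limit.

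The R4 members of the Rgs2, Rgs1 and Rgs18 stretch of chromosome 1 showed wide spread within groups and overlap between them. Rgs2, which acts on Gq in particular and lowers vascular tone, read 9.95, 10.30 and 10.51 in diabetic and 10.21, 9.70 and 10.50 in nondiabetic replicates 1 to 3, a difference of 0.12 (SE 0.24). Its sign changed without diabetic replicate 3 and without nondiabetic replicate 2, where it was lowest, at -0.10. The dimmer Rgs2 probe set differed by -0.086, with values of 8.88, 9.28 and 9.01 against 8.97, 8.72 and 9.73. In both Rgs2 probe sets nondiabetic replicate 2 was the lowest array, and the highest array differed between them.

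**Figure D2:**
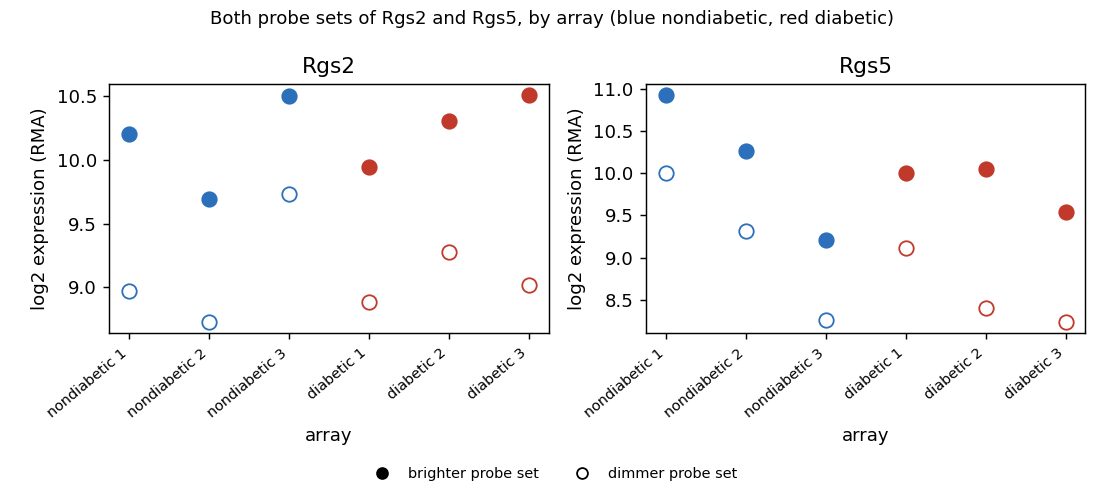
Log2 expression (y axis, RMA values) of both probe sets that name Rgs2 and Rgs5, for each array (x axis), with filled points for the brighter and open points for the dimmer probe set, nondiabetic arrays in blue and diabetic arrays in red. For Rgs5 both probe sets were highest in nondiabetic replicate 1, at 10.92 and 9.997, and for Rgs2 both were lowest in nondiabetic replicate 2, at 9.70 and 8.72.

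Rgs1, known from lymphocytes, where it dampens chemokine receptors, gave nearly equal diabetic values of 8.07, 8.14 and 8.05, against 8.03, 7.81 and 8.99 in nondiabetic replicates 1 to 3. The SD was 0.047 in the diabetic and 0.63 in the nondiabetic group, and nondiabetic replicate 3 alone stood above the rest. The difference of -0.19 (SE 0.29) was 0.17 without that array. Nondiabetic replicate 3 was also highest for the mean of the 7 basophil and mast cell markers, at 10.24, where the other arrays lay between 9.13 and 9.92. For the 4 of 9 T and NK cell markers that were tested, its mean of 6.53 was the highest as well. There the other arrays lay between 5.93 and 6.47, with diabetic replicate 2 at 6.47 close behind. The part of these markers in the Rgs1 values was not tested.

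Rgs18, a gene of platelets and megakaryocytes, read 7.88, 7.46 and 8.83 in diabetic and 8.66, 7.69 and 9.02 in nondiabetic replicates 1 to 3, a difference of -0.40 (SE 0.42). Replicate 3 of both groups was high, and its within-group SD of 0.70 was larger than that of 98.1% of tested genes. The mean of the 7 tested megakaryocyte markers, of 9 listed, was also highest in those arrays, at 9.36 in diabetic replicate 3 and 9.19 in nondiabetic replicate 3, where the other arrays had 8.11 to 8.49. Nondiabetic replicate 1 was high for Rgs18, at 8.66, but not for the megakaryocyte markers, at 8.41. The part of platelet RNA in Rgs18 was not tested. The difference ran from -0.79 without diabetic replicate 3 to -0.098 without diabetic replicate 2.

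Rgs3, the R4 member outside chromosome 1, lies on chromosome 4 and has long and short protein forms. It read 7.77, 7.45 and 7.13 in diabetic and 7.25, 7.54 and 7.63 in nondiabetic replicates 1 to 3. The difference was -0.027 (SE 0.20, 95% interval -0.50 to 0.44), and it was -0.19 without diabetic replicate 1 and 0.13 without diabetic replicate 3.

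The members of the R12 and RZ subfamilies differed by 0.13 or less between the group means. Rgs10, one of the smallest RGS proteins, known from platelets, microglia and lymphocytes, read 6.45, 7.0 and 6.87 in diabetic and 6.89, 6.43 and 6.86 in nondiabetic replicates 1 to 3. Its difference was 0.046 (SE 0.21, 95% interval -0.43 to 0.53), and it fell to -0.10 without nondiabetic replicate 2. Rgs14, a scaffold that also binds Ras family proteins and inactive Gi, was the steadiest member, with values of 5.79, 5.77 and 6.03 against 5.84, 5.89 and 5.72. The Rgs14 difference was 0.043 (SE 0.15, 95% interval -0.31 to 0.39), and it was -0.040 without diabetic replicate 3. Its values lay within 1 log2 unit above the limit for dim genes. Rgs19, also called GAIP, read 6.50, 6.14 and 6.11 in diabetic and 5.76, 5.91 and 6.68 in nondiabetic replicates 1 to 3, a difference of 0.13 (SE 0.26, 95% interval -0.46 to 0.73). Nondiabetic replicate 3, the array with the highest Rgs1 and Rgs18, was highest for Rgs19 too, and without it the difference was 0.42, while without nondiabetic replicate 1 it was -0.043.

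Between arrays of the same group the members varied more than most genes. The within-group SD was above that of the median tested gene for 9 of the 10 members, all but Rgs14, and above the 95th percentile for 4, namely Rgs4, Rgs5, Rgs16 and Rgs18. The median over the members was 0.41, against 0.24 over all tested genes. This is a description of these arrays, with no test, and the members were chosen with their values known. Nondiabetic replicate 3 was the highest array for 3 members and nondiabetic replicate 2 the lowest for 3, so no single array decided the order throughout.

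**Figure D3:**
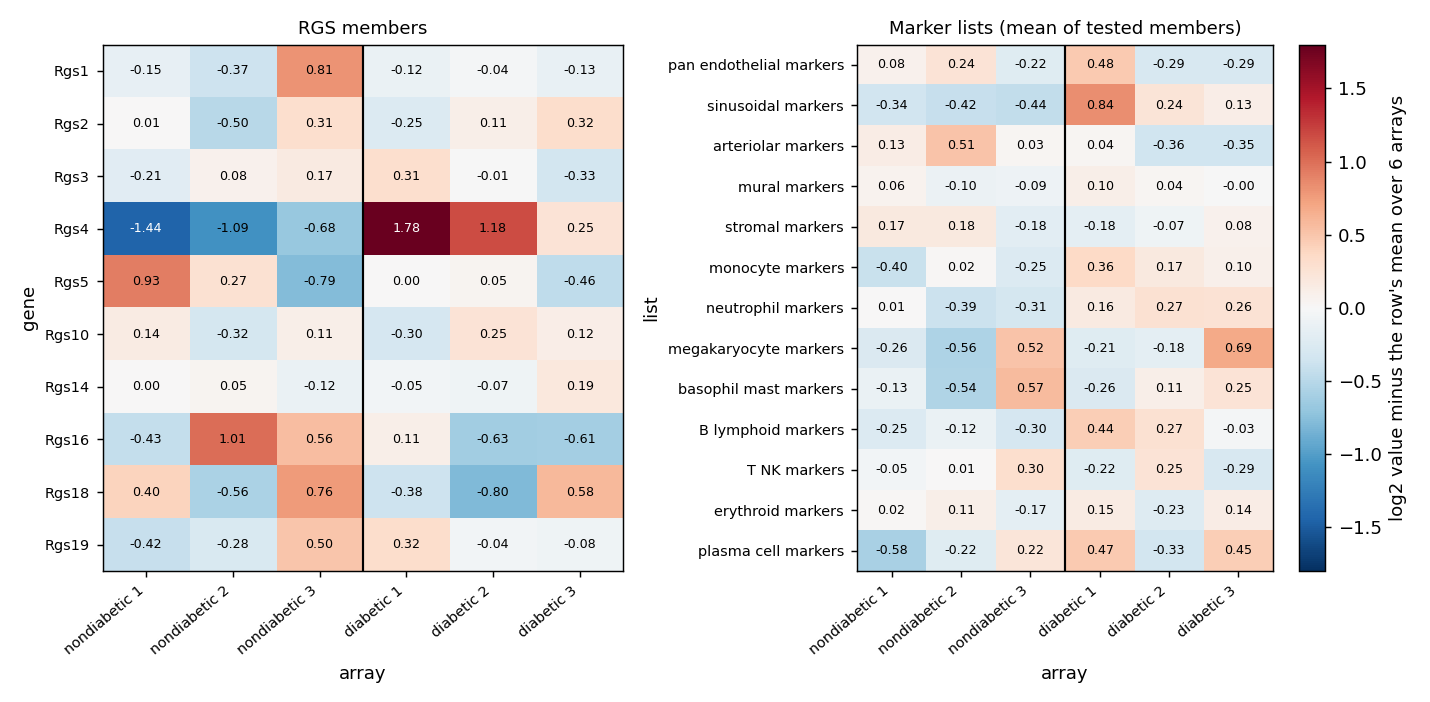
Log2 value of each RGS member (left) and mean of each list of cell type markers (right) in each array, minus the row's mean over the 6 arrays, in log2 units by colour and number; the black line parts nondiabetic from diabetic arrays. Rgs4 is low in all nondiabetic and high in all diabetic arrays. The sinusoidal, monocyte, neutrophil and B lymphoid means are also higher in all diabetic than in all nondiabetic arrays. Rgs18 and the megakaryocyte markers are high in replicate 3 of both groups.

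The members as a family are set here beside all tested genes. In the diabetic arrays 5 members had higher and 5 lower means, where 54% of all tested genes were higher. Of the 7 R4 members 2 were higher and 5 lower, and the 2 R12 members and the RZ member were higher. The median difference over the members was 0.0083, beside 0.019 over all tested genes, and the median size was 0.16, beside 0.14. At a limma adjusted p under 0.05, 0 of the 10 members were called, Rgs4 among those not called, where 0.00751% of the 13308 tested genes were, a single gene, Rabggtb, which encodes a Rab prenylation enzyme subunit and differed by -4.43. At an unadjusted p under 0.05, 1 member, Rgs4, passed, beside 4.25% of tested genes, and the groups did not overlap for 1 member, again Rgs4, beside 7.95% of tested genes. A difference over 1 in size was found for 1 member, Rgs4, and for 0.436% of tested genes. The members were chosen on this contrast, so nothing is read from these counts.

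**Figure D4:**
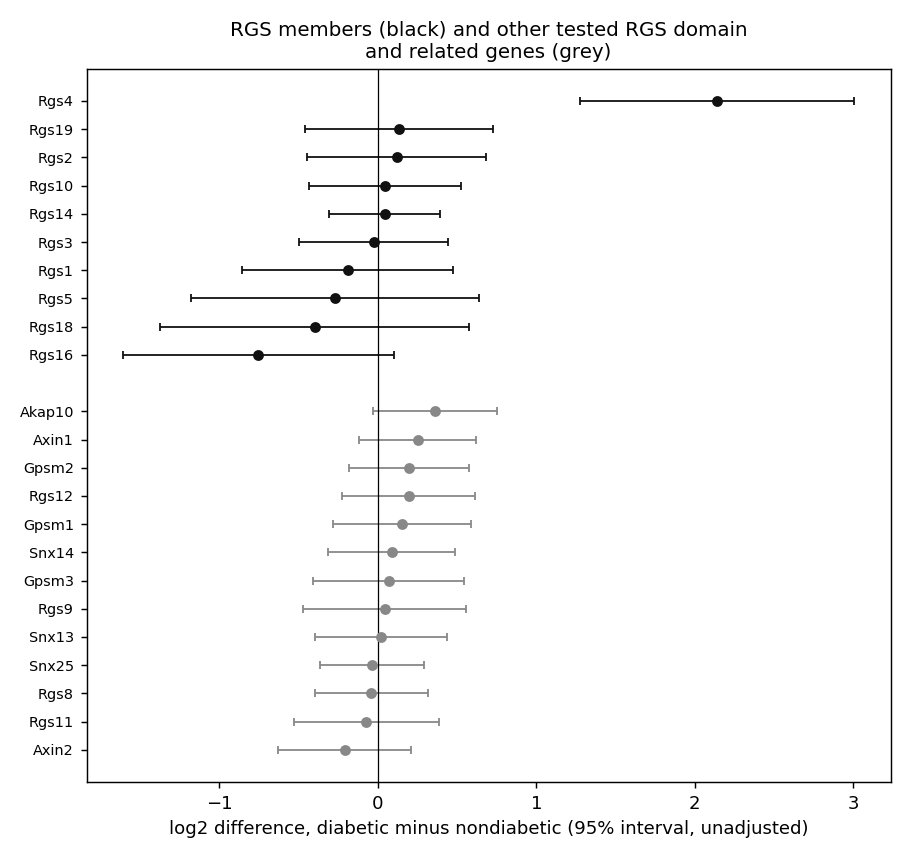
Difference in log2 expression, diabetic minus nondiabetic (x axis), with unadjusted 95% intervals from the limma fit on 3 arrays per group, for the 10 RGS members (black) and for the 13 tested genes of other RGS domain and related proteins (grey). Rgs4 lies at 2.14, the other members between -0.75 and 0.13, and the grey genes between -0.21 and 0.36.

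The rest of the family and its relatives, 23 genes with RGS domains or linked roles, served for comparison, and 0 of its 13 tested genes were called by limma, also at an unadjusted p under 0.05. The other 10, left out as dim, were Rgs6, Rgs7, Rgs13, Rgs17, Rgs20, Rgs21, Rgs22, Rgs7bp, Rgs9bp and Rgsl1, and each lay under the limit on all 6 arrays. Rgs13 and Rgs21, which lie between Rgs2, Rgs1 and Rgs18, were thus not above it in either group. Of the tested genes, 9 had higher and 4 lower means in diabetes, with a median of 0.069. Akap10, which anchors protein kinase A and carries RGS domains, stood at 6.48 ± 0.21 and 6.12 ± 0.13 in diabetic and nondiabetic arrays (SD, n = 3 each), and the means were 0.36 apart (SE 0.17). The scaffolds of the Wnt pathway Axin1 and Axin2 differed by 0.25 (SE 0.16) and -0.21 (SE 0.18). Rgs12, of the R12 subfamily, differed by 0.19, and the R7 subfamily genes Rgs9 and Rgs11 by 0.043 and -0.071. The sorting nexins with RGS domains, Snx13, Snx14 and Snx25, differed by 0.021, 0.087 and -0.037. The G protein signaling modulators Gpsm1, Gpsm2 and Gpsm3, which bind inactive Gi, differed by 0.15, 0.20 and 0.069. Of these genes Rgs8, Rgs11, Axin2, Gpsm1 and Gpsm2 had 1 or 2 arrays under the limit for dim genes.

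The genes of G protein alpha, beta and gamma subunits did not pass the test either. Of 12 tested alpha subunits, 9 had higher and 3 lower means, with a median of 0.043 and 0 called. Gnai2, the main Gi alpha subunit of blood and endothelial cells, stood at 9.64 ± 0.065 and 9.62 ± 0.12 (SD, n = 3 each), with means 0.025 apart (95% interval -0.31 to 0.36). For Gnai3 the difference was 0.079, and for Gnaq, the alpha subunit that activates phospholipase C beta, 0.029 with an interval of -0.62 to 0.68. Gna13 differed by -0.038, and Gnas, which activates adenylyl cyclase, by -0.018. The Gnas probe set stood at 5.56 and 5.58 in diabetic and nondiabetic arrays, near the limit for dim genes. The alpha subunits with the smallest p were Gna12, at 0.41 (SE 0.22), and Gna11, at -0.35 (SE 0.24). Of 10 tested beta and gamma subunits, 8 had higher and 2 lower means, with a median of 0.15. Among them Gng10 differed by 0.49 (SE 0.26), Gng2 by 0.18 (SE 0.15), Gng5 by 0.10 and Gnb1 by -0.063.

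Receptors upstream of these subunits went both ways, with 21 of 45 tested genes higher and 24 lower, a median of -0.023 and 0 called. S1pr1, the sphingosine phosphate receptor that keeps endothelial junctions tight, differed by 0.033 (95% interval -0.64 to 0.70), and diabetic replicate 1 alone, at 9.82, stood above the 8.74 to 9.22 of the other arrays. Cxcr4, the receptor for Cxcl12, differed by 0.045 and F2r, the thrombin receptor, by 0.17. Adgrl4 and Adgrf5, adhesion receptors of endothelium, differed by 0.043 and -0.11. At an unadjusted p under 0.05, 2 receptors were higher and 0 lower, beside 3.19% and 1.07% of all tested genes. Receptors without overlap between the groups leaned the other way, with the same 2 higher and 5 others lower in diabetes. Gpr182, a receptor of sinusoidal endothelium and one of the 6 sinusoidal markers, read 9.01, 8.78 and 8.48 in diabetic and 8.12, 7.96 and 7.99 in nondiabetic replicates 1 to 3, a difference of 0.73 (SE 0.18). C5ar1, the receptor for complement C5a on myeloid cells, read 6.42, 6.33 and 6.35 against 5.84, 5.98 and 5.62, a difference of 0.56 (SE 0.16). Both lay higher in the same arrays as Rgs4 and the means of the sinusoidal, monocyte, neutrophil and B lymphoid markers did.

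Receptor kinases, arrestins and alpha subunit chaperones, which switch off or prepare the same signals, had 3 of 9 tested genes higher and 6 lower, with 0 called. Grk3, a kinase that marks active receptors, read 6.12, 5.81 and 6.40 in diabetic and 5.24, 4.95 and 5.85 in nondiabetic replicates 1 to 3, a difference of 0.76 (SE 0.26), the only one with an unadjusted p under 0.05, and nondiabetic replicate 2 lay under the limit for dim genes. Grk5 differed by -0.30 (SE 0.21) and the arrestin Arrb2 by -0.023. Of 28 tested effectors 12 were higher and 16 lower, with a median of -0.032 and 0 called, and 2 had an unadjusted p under 0.05, both lower. Adcy6, an adenylyl cyclase that Gi inhibits, stood at 6.45 ± 0.19 and 7.18 ± 0.40 (SD, n = 3 each), which differ by -0.72 (SE 0.23), with all diabetic arrays below all nondiabetic arrays. Plcb1, a phospholipase C activated by Gq, differed by -0.51 (SE 0.21). Adcy4, an adenylyl cyclase, and the kinase Rock1 differed by -0.063 and -0.13. Over the joined lists 117 genes were tested and 5 had an unadjusted p under 0.05, beside 4.25% of all tested genes, and the smallest adjusted p in each list was 0.997.

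**Figure D5:**
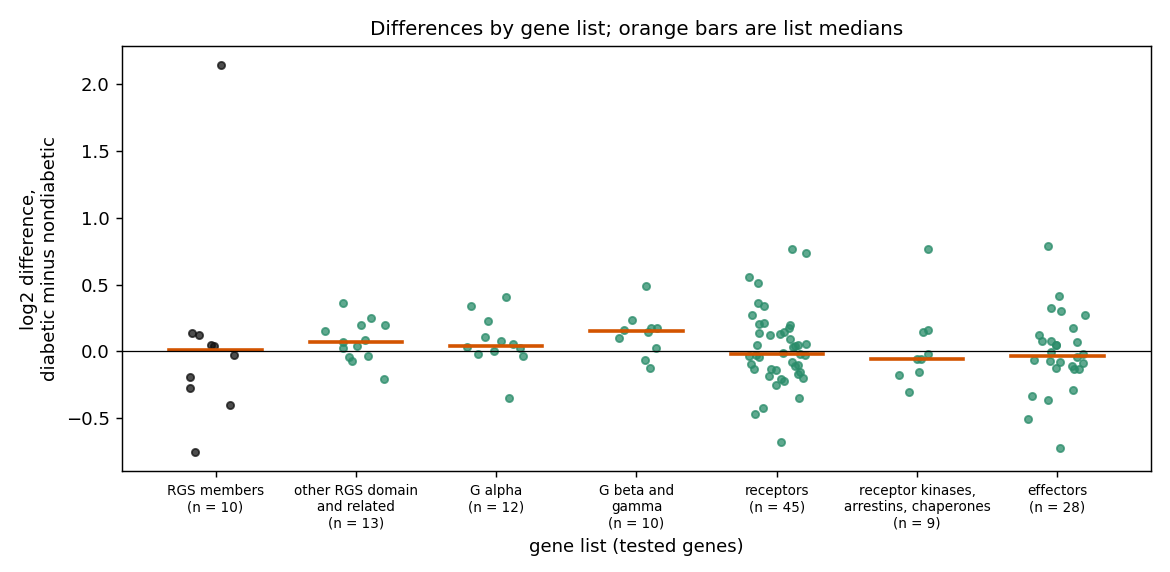
Difference in log2 expression, diabetic minus nondiabetic (y axis), for every tested gene of each list (x axis), with orange bars at the list medians. The medians lie between -0.057 for receptor kinases, arrestins and chaperones and 0.15 for beta and gamma subunits, and Rgs4, at 2.14, is the highest point.

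The genes whose log2 values over the 6 arrays ran most like those of Rgs4, by Pearson's r among all tested genes and passing over 1 predicted gene, were Chst2 (0.995), Sstr4 (0.993), Selenon (0.988), Fam168a (0.981) and Hilpda (0.978). Chst2 is a sulfotransferase, Sstr4 a somatostatin receptor, Selenon a selenoprotein and Hilpda a lipid droplet protein. With 6 arrays in 2 groups, 39 tested genes had an r over 0.95 to Rgs4, so the order among them is a description. Their differences were much smaller than that of Rgs4: 0.24 for Chst2, 0.32 for Sstr4, 0.40 for Selenon, 0.31 for Fam168a and 0.83 for Hilpda.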

How the data were processed

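The values are log2 expression per probe set as the authors deposited them, obtained by RMA (robust multi-array average: background correction, a shared distribution for all arrays, one value per probe set) per the submitters' processing notes. Its software was not given in the sources used here. The Ovation Pico WTA kit served for amplification, per the labels' protocols. Of 41345 probe sets, 23521 named 1 gene in the supplied platform annotation, which can be old, 1814 named several and 16010 had no name here; only the first kind was used. Each of 22180 genes took its brightest probe set, and those whose mean fell under the 40th percentile (5.07) were dropped as dim, leaving 13308. The group comparison used limma 3.58.1 under R 4.3.3 (lmFit, eBayes, no covariates, Benjamini-Hochberg over all tested genes, threshold 0.05), and the procedure was tested on simulated data. Levels of different probe sets were not compared. The number of arrays limits the precision. The members and lists were chosen with earlier results of these data known. Genes named besides the members were, per pathway list, the 2 with the smallest p, the 2 with the highest mean and 8 further names from the lists (Grk2 had no probe set of its own among those used), with every tested gene of the other RGS domain list, the brightest tested marker of each marker list (only those that bear on a member are printed) and the 5 genes most like Rgs4. Rabggtb was named after its value was seen. Of the listed pathway genes 155 were measured. The alternatives were 15: filters, probe set means, renormalization, centring, eBayes with trend, array weights, a replicate block, a covariate and leaving out each array. Leaving out each marker of a list was added after seeing the data, and Adamts5, Bmx, Sox17, Gja4, Gja5, Efnb2, Ms4a6c, S100a8 and Elane were named after their values were seen.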

Additional observations from a re-analysis of the deposited data

How the results depend on the processing

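In all 15 alternatives 0 RGS members were called by limma, and 0 of the other G protein signaling genes, at an adjusted p under 0.05. Over all tested genes 1 gene, Rabggtb, was called, and 0 with a filter at the 60th percentile, where fewer genes were tested and its probe set was left out as dim. With single arrays left out the count ran from 0 to 1, and it was 0 without nondiabetic replicate 3. The signs of 3 members, Rgs4 (1.79 to 2.55), Rgs16 (-1.16 to -0.44) and Rgs18 (-0.79 to -0.098), held in every alternative that tested them; Rgs16 and Rgs14 were left out by the filter at the 60th percentile. The other members changed sign in at least 1 alternative. The filters, eBayes with trend and the replicate block leave a member's difference as it was, so they could not change a sign. Probe set means could not either for a member with 1 probe set. At an unadjusted p under 0.05, Rgs16 joined Rgs4 with array weights (-0.90) and without diabetic replicate 1 (-0.997) or nondiabetic replicate 1 (-1.16), and Rgs5 joined it without nondiabetic replicate 3 (-0.73). Over all tested genes, same-numbered arrays showed little shared deviation (correlations of -0.036, -0.064 and 0.016). A correlation over all genes can miss sharing that touches some of them, so whether the numbers pair arrays is not settled. With the replicate block 1 gene was called over all tested genes, 0 members and 0 other G protein signaling genes. The median of all tested genes moved by less than 0.1 under each scaling. Rgs16, Rgs8, Rgs11, Axin2, Gpsm1, Gpsm2 and Grk3 have 1 or 2 arrays under the limit for dim genes, so the size of their differences is uncertain. Without Ms4a6c the monocyte means, and without S100a8 or Elane the neutrophil means, overlapped between the groups.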
